A study of Mus musculus with 24 samples.

Results

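Aqp4, Slc1a2, Slc1a3, Glul, Gja1, Gjb6, Aldh1l1, Aldoc, Slc6a11 and Sox9 are genes by which astrocytes are known and through which they keep the surroundings of neurons constant. These 10 genes were taken by symbol from a table of 36333 genes, and all 10 were measured and passed the filter on low values, which left 17267 genes for testing. RNA came from the lesioned and perilesional brain of 24 male mice at 5 dpi (days post injury), with 1 library per mouse. Per the labels the mice were C57BL6N aged 12 to 16 weeks, whereas the methods name another C57BL/6 substrain. Traumatic brain injury (TBI) was set by controlled cortical impact, a brief blow of a piston to the exposed parietal cortex. Injured mice received vehicle (Vehicle, n = 5), PLX3397 at 290 mg per kg of chow from 90 min after the impact (PLX3397, n = 5), Anakinra at 100 mg/kg under the skin at 5 min, 24 h, 48 h and 72 h (Anakinra, n = 5), or both (PLX3397+Anakinra, n = 5). The Sham group (n = 4) had anesthesia and a skin incision but neither craniotomy nor impact, so that the bone opening cannot be told apart from the impact. PLX3397 inhibits CSF1R, the growth factor receptor on which microglia depend, and Anakinra blocks the interleukin-1 receptor IL1R1. Mice are named by the animal codes of the labels. Mice without a drug received plain chow and saline in its place. The tissue is named cortex in the labels, but per the methods the sections also took in striatum, thalamus and dorsal hippocampus. The 6 striatal marker genes summed to 875 to 1504 TPM in every library, so that the tissue held more than cortex.

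Astrocytes line blood vessels with endfeet rich in the water channel Aqp4, take up glutamate and GABA released at synapses, and convert glutamate to glutamine, which neurons reuse. They are coupled by gap junctions of connexin 43 (Gja1) and connexin 30 (Gjb6), through which potassium and metabolites spread. Near a lesion astrocytes become reactive, with more intermediate filament such as Gfap and often with altered levels of these homeostatic genes. In bulk tissue, more astrocytes and more RNA of a gene per astrocyte cannot be told apart.

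On GRCm38.p6, RefSeq places Glul at chr1:153899929-153909723, Slc1a2 at chr2:102658239-102790784, Aldh1l1 at chr6:90550768-90599171, Slc6a11 at chr6:114131241-114249886 and Gja1 at chr10:56377300-56390419. Aldoc (chr11:78323073-78327781) and Sox9 (chr11:112782210-112787757) share a chromosome, and Gjb6 lies at chr14:57123301-57133611 and Slc1a3 at chr15:8634124-8710807. The position and promoter of Aqp4 and the promoter of Sox9 are not reported here. Promoter sequence from RefSeq on GRCm38.p6 was used for the other 8 of the 10 genes. For 5 of them the 250 bases before an annotated transcript start are given so that the 3 genes that rose clearly after injury (Gja1, Slc1a3 and Aldh1l1) can be read beside the pair with the smallest differences (Aldoc and Slc6a11). For Aldh1l1 that start lies after the first base of the gene given above, so that the end of its window is inside the gene. All are written 5′ to 3′ along the gene, and capitals mark matches to the searched motifs on either strand.
Gja1, chr10:56377050-56377299, plus strand: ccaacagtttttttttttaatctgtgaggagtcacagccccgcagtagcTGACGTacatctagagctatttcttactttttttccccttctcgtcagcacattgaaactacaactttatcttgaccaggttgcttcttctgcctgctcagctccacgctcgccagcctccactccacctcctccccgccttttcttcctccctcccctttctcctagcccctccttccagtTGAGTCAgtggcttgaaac
Slc1a3, chr15:8710808-8711057, minus strand: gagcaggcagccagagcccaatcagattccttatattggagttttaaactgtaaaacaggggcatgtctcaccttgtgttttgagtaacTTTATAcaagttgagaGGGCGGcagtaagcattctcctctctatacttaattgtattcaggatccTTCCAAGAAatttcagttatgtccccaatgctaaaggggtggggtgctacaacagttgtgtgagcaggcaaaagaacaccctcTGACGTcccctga
Aldh1l1, chr6:90550543-90550792, plus strand: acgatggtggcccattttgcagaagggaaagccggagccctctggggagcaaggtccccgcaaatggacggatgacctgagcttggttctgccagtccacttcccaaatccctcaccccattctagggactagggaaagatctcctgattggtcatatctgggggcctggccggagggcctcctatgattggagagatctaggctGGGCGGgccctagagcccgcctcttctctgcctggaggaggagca
Aldoc, chr11:78322823-78323072, plus strand: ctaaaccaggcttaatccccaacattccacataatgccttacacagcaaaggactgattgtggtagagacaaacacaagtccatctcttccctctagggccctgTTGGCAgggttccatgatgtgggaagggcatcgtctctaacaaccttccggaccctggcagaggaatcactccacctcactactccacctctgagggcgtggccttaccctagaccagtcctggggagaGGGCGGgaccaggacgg
Slc6a11, chr6:114130991-114131240, plus strand: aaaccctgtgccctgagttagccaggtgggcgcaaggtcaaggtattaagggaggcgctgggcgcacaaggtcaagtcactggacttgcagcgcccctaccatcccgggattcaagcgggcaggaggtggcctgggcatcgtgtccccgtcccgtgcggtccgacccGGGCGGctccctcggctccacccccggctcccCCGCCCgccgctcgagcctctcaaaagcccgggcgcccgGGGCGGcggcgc
Searched were a STAT site (TTCNNNGAA), an AP-1 site (TGANTCA), an NFI core (TTGGCA), 2 SOX cores (ACAAAG and ACAATG), a CRE core (TGACGT), a GC box (GGGCGG) and a TATA box (TATAAA), and no match overlapped another. The STAT site, bound by a family of factors that includes Stat3, lay 96 bases before the start of Slc1a3, and 7.02% of 32851 windows of this length held one. The AP-1 site lay 19 bases before the start of Gja1 (6.75% of windows), and the NFI core 146 bases before that of Aldoc (12.3%). The CRE core lay 201 bases before the start of Gja1 and 13 bases before that of Slc1a3 (6.47%). Slc1a3 also held the TATA box, on the other strand, 161 bases before its start (12.4%). The GC box was in the windows of 5 of the 8 genes (Glul, Aldh1l1, Slc6a11, Aldoc and Slc1a3) against 32.7% of all windows, and that of Slc6a11 held 3 copies. Slc6a11 also had the window richest in G and C of these genes, at 71.2%, against a median of 52.4% over all windows. The windows of Slc1a2 and Gjb6, that of Slc1a2 being chr2:102706188-102706437 before a start within the stated gene, held none of these letters. Aldoc has a second annotated start, with the window chr11:78323948-78324197, which held STAT sites at 124 and 83 bases. These matches describe letters and were not tested against the expression values.

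The genes were abundant. In TPM, which is scaled by gene length and to 1000000 per library and so allows levels of different genes to be compared, Glul (glutamine synthetase) had the highest level in every group and Sox9 the lowest. In Sham mice Glul stood at 1669 ± 55.1 TPM (SD, n = 4), followed by Aldoc at 819 ± 66.6, Slc1a2 at 627 ± 20.1, Slc1a3 at 359 ± 27.0, Slc6a11 at 199 ± 10.9 and Gja1 at 167 ± 4.25. Gjb6 (57.7 ± 6.92), Aldh1l1 (53.9 ± 5.08) and Aqp4 (51.5 ± 3.43) formed a cluster in Sham whose values overlapped, and Sox9 stood below them at 21.997 ± 0.806. In Vehicle mice Aqp4 (214 ± 26.1 TPM, SD, n = 5) had left this cluster and overlapped with Slc6a11 (218 ± 10.1). No other neighbours in the Vehicle order overlapped. Together the 10 genes held 3866 to 4277 TPM in Sham and 4925 to 5315 TPM in Vehicle mice, that is 0.402% and 0.512% of the library total on average. With PLX3397 the sum was 4921 to 5338 TPM, with Anakinra 4784 to 4941 TPM, and with both 4964 to 5383 TPM.

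**Figure D1:**
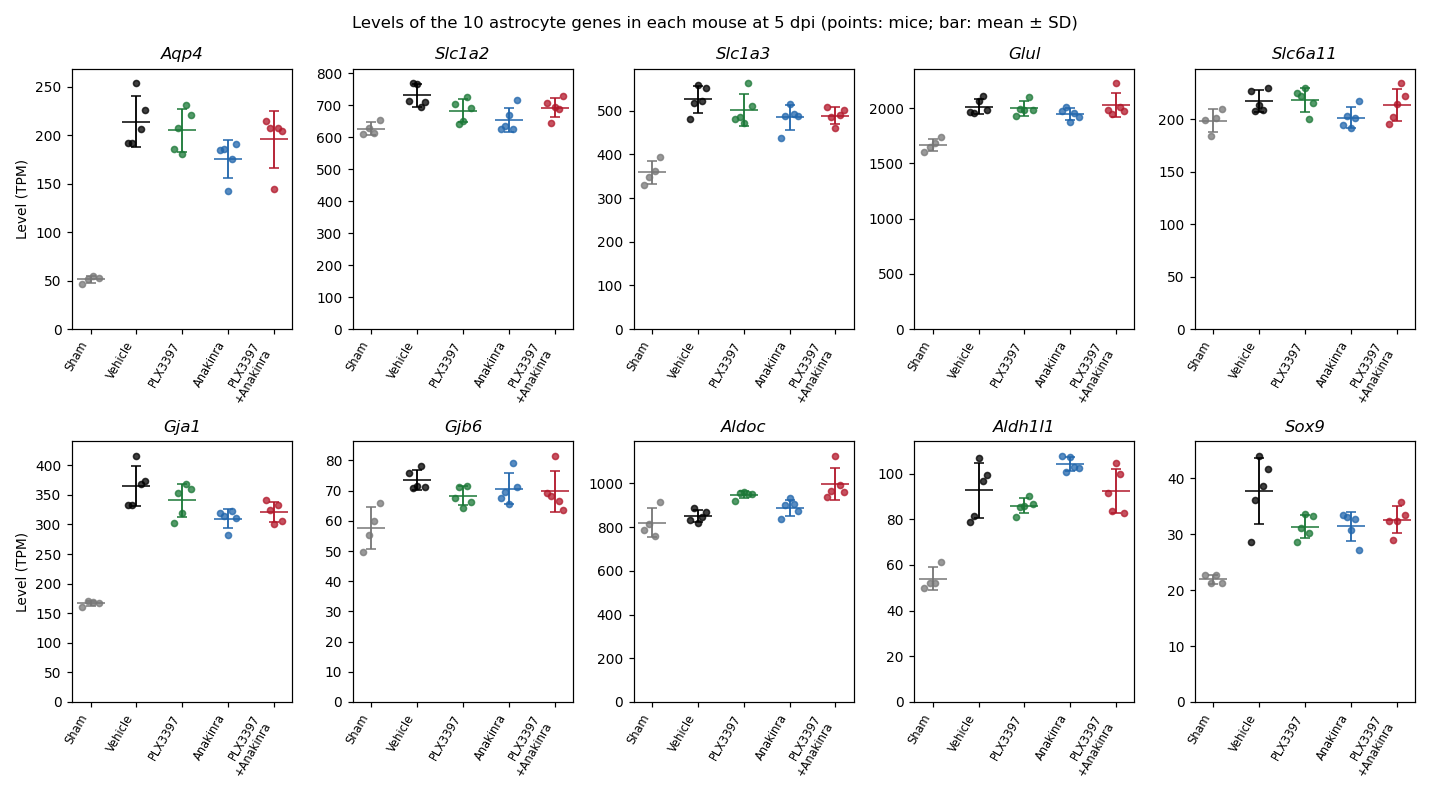
Level in TPM (vertical axes, starting at 0) of each of the 10 genes in 4 Sham mice and 5 mice of each injured group (horizontal axes); points are mice and bars are mean ± SD. Aqp4 and Gja1 of all injured mice lie far above the Sham mice, whereas Slc6a11 and Aldoc of Vehicle mice overlap with Sham.

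To ask how injury alone moved these genes, Vehicle mice were compared with Sham mice. A gene was called where limma's adjusted p was below 0.05 over the 17267 genes. Of the 10 genes, 9 rose and none fell, whereas 26.6% of all genes tested were called higher and 27.7% lower. The median log2 fold change was 0.45 over the 10 genes and -0.01 over all genes tested. The values of 8 genes did not overlap between the groups and were higher in Vehicle (21.7% of all genes). Under the study's criteria for a DEG (unadjusted p below 0.05, a ratio of mean TPM above 2 and a difference above 4 TPM), Aqp4 and Gja1 were called, against 5.26% of all genes. Over all 5 groups, 9 of the 10 genes differed in limma's F-test, beside 51.9% of all genes. The exception was Slc6a11 (adjusted p = 0.0743).

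**Figure D2:**
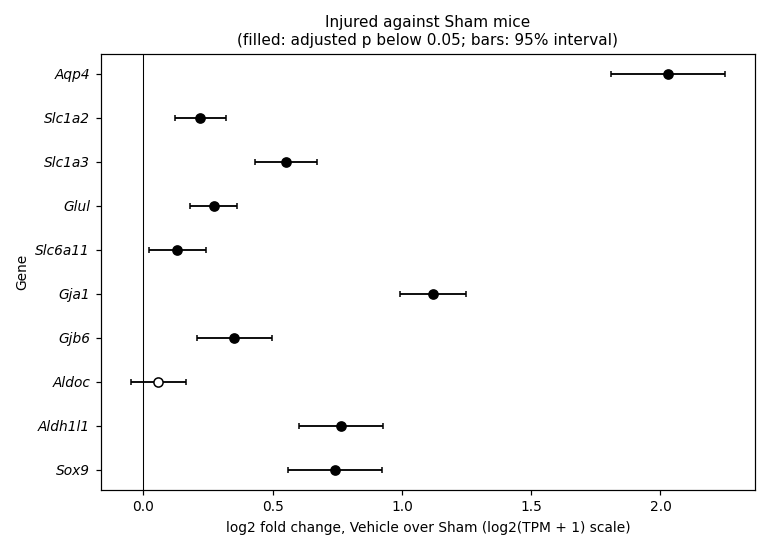
Log2 fold change of Vehicle over Sham (horizontal axis, log2(TPM + 1) scale) for the 10 genes (vertical axis), with 95% intervals of limma; filled points have an adjusted p below 0.05. Aqp4 at 2.03 and Gja1 at 1.12 stand apart, and Aldoc at 0.06 has the open point.

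Aqp4, the water channel of astrocyte endfeet, changed most. The Sham mice had 46.8, 51.7, 55.0 and 52.4 TPM. The Vehicle mice had 192, 192, 254, 206 and 226 TPM. Every Vehicle mouse was thus above every Sham mouse, and the difference was 2.03 on the log2 scale (SE 0.11, adjusted p = 5.62e-14). Kcnj10, the potassium channel Kir4.1 that shares the endfoot with Aqp4, rose less, from 128 ± 11.9 TPM (SD, n = 4) to 216 ± 10.1 TPM (SD, n = 5; log2 fold change 0.75, adjusted p = 2.99e-10). The list of ion and potassium handling (among them Kcnj10, the sodium pump subunit Atp1b2 and the bicarbonate transporter Slc4a4) rose in 5 of 5 genes, with a median log2 fold change of 0.45. Among 6 genes that anchor proteins at the endfoot, 4 rose and none fell (median 0.23). Among those, Mlc1 and Hepacam, which form a membrane complex of perivascular astrocytes, rose by 0.79 and 0.50 on the log2 scale.

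The glutamate transporters rose unequally. Slc1a3 (GLAST) had 330, 349, 362 and 394 TPM in Sham mice. In Vehicle mice it had 481, 517, 560, 522 and 552 TPM. The groups did not overlap, and the log2 fold change was 0.55 (SE 0.058, adjusted p = 1.47e-08). Slc1a2 (GLT-1), the more abundant transporter in both groups, had 611, 628, 613 and 654 TPM in Sham mice. It had 713, 769, 768, 694 and 709 TPM in Vehicle mice. Here too each Vehicle mouse was above each Sham mouse, by a smaller log2 fold change of 0.22 (SE 0.048, adjusted p = 0.000416). Glul, which makes glutamine from glutamate and ammonia, had 1607, 1650, 1681 and 1738 TPM in Sham mice. Its levels were 1962, 1953, 2066, 2113 and 1985 TPM in Vehicle mice. These groups did not overlap either, at a log2 fold change of 0.27 (SE 0.043, adjusted p = 9.3e-06).

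Slc6a11 (GAT-3), the GABA transporter found mainly on astrocytes, changed least among the called genes. Sham mice had 199.8, 184, 201 and 209.8 TPM. Vehicle mice had 227, 208, 214, 209 and 229.9 TPM. The ranges overlapped, and the log2 fold change of 0.13 (SE 0.054) was called only just (adjusted p = 0.0417). This call was lost without filter (adjusted p = 0.0644), without a trend of the variance (adjusted p = 0.0579) and without any one of 6 mice (J01B, J18B and J20B of Vehicle, and J07, J08 and J15 of Sham), with log2 fold changes of 0.09 to 0.14. In the list of 11 other genes of glutamate, GABA and amino acid handling, 7 rose and 2 fell (median 0.39). Slc38a3, which exports glutamine, rose by 0.85, Slc7a11, the cystine-glutamate exchanger, by 0.72, and Slc1a4, a carrier of neutral amino acids, by 0.41 on the log2 scale. Slc7a10, the astrocytic serine transporter, rose by 0.24 (adjusted p = 0.00425). Among the genes that fell, Prodh, which begins the breakdown of proline, fell by 0.28.

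Both astrocyte connexins rose, Gja1 far more than Gjb6. Gja1 had 161, 169.9, 169 and 166 TPM in Sham mice. In Vehicle mice it had 333, 333, 415, 368 and 374 TPM. The lowest Vehicle mouse stood far above the highest Sham mouse, and the log2 fold change was 1.12 (SE 0.063, adjusted p = 1.7e-13). Gjb6 had 49.7, 55.2, 59.8 and 66.0 TPM in Sham mice. It had 75.9, 70.9, 71.5, 78.1 and 71.3 TPM in Vehicle mice. The gap between these groups was narrow, with a log2 fold change of 0.35 (SE 0.071, adjusted p = 0.000164). The other 4 glial connexins also rose. Gjb2 (connexin 26), shared by astrocytes and meningeal cells, rose by 0.79 on the log2 scale, and the oligodendrocyte connexins Gjb1 and Gjc3 rose by 0.70 and 0.46.

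The enzymes differed. Aldh1l1, a folate enzyme widely used as an astrocyte marker, had 49.9, 52.2, 52.2 and 61.4 TPM in Sham mice. It had 78.9, 81.3, 107, 96.8 and 99.5 TPM in Vehicle mice. The groups were separate, at a log2 fold change of 0.76 (SE 0.079, adjusted p = 1.08e-08). Aldoc, the aldolase of astrocyte glycolysis, had 789, 815, 759.8 and 913 TPM in Sham mice. Its levels of 834, 887, 817, 847 and 869 TPM in Vehicle mice lay within the Sham range. It was the only one of the 10 genes not called (log2 fold change 0.06, 95% interval -0.05 to 0.16, adjusted p = 0.361). Aldoa, the aldolase of most tissues, fell from 1666 ± 43.7 TPM (SD, n = 4) to 1307 ± 44.95 TPM (SD, n = 5; log2 fold change -0.35, adjusted p = 3.46e-08). In the list of 12 genes of glial metabolism, 9 rose and 2 fell (median 0.45). Aldh1l2, the mitochondrial relative of Aldh1l1, rose by 1.68, Ppp1r3c, a regulator of glycogen, by 0.88 and Acsbg1, an activator of fatty acids, by 0.51 on the log2 scale. Besides Aldoa, the lactate dehydrogenase subunit Ldhb fell by 0.27.

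Sox9, a transcription factor of astrocytes and their precursors, had 22.7, 21.3, 22.7 and 21.3 TPM in Sham mice. It had 28.7, 36.1, 44.0, 38.7 and 41.6 TPM in Vehicle mice. The lowest Vehicle value (mouse J01B) was still above all Sham values, and the log2 fold change was 0.74 (SE 0.087, adjusted p = 1.01e-07). Of 9 other astrocyte transcription factors, 4 rose and 3 fell (median 0.13). Zbtb20 rose by 0.68, Sox2 by 0.56 and Rfx4 by 0.41 on the log2 scale, and Nfia by 0.37 (adjusted p = 0.000134). Hes5, a target of Notch signalling, fell by 0.89, Nfix by 0.38 and Lhx2 by 0.19. Of 16 further genes of the astrocyte surface or secretion, 11 rose and 1 fell (median 0.31). The urea transporter Slc14a1 rose by 2.05, the receptors Gpr37l1 and Mertk by 0.62 and 0.72, whereas the proteoglycan Gpc5 fell by 0.23.

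As a description of how far members of a pair moved unequally, 4 ratios of related genes were formed within each library. The pairs were chosen after these values were seen, so that no test is given. Slc1a2/Slc1a3 was 1.75 ± 0.0895 (SD, n = 4) in Sham and 1.39 ± 0.0907 (SD, n = 5) in Vehicle mice. Gja1/Gjb6 went from 2.92 ± 0.310 to 4.97 ± 0.561. Aqp4/Kcnj10 went from 0.404 ± 0.0292 to 0.991 ± 0.0877. Aldoc/Aldoa went from 0.491 ± 0.0330 to 0.652 ± 0.0189. In each of the 4 ratios the Sham and Vehicle mice did not overlap, which the choice of pairs made likely. With drugs the mean ratios were closer to those of Vehicle than of Sham mice, Aldoc/Aldoa for example at 0.637 ± 0.0352 with PLX3397, 0.622 ± 0.0154 with Anakinra and 0.665 ± 0.0552 with both (SD, n = 5 each).

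**Figure D3:**
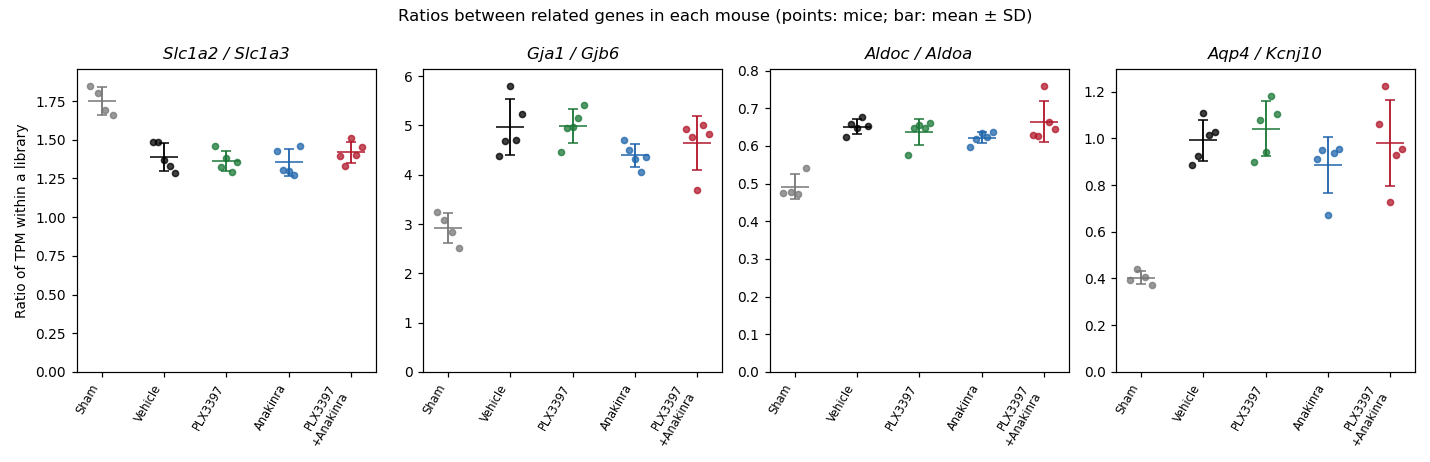
Ratio of TPM within each library (vertical axes, starting at 0) for 4 pairs of related genes in the 5 groups (horizontal axes); points are mice, bars are mean ± SD. In every panel the Sham mice are separated from the Vehicle mice, downwards for Slc1a2/Slc1a3 (1.75 to 1.39) and upwards for the others.

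Other cells changed at the same time. The 19 genes of reactive astrocytes all rose in Vehicle against Sham mice (median log2 fold change 2.11), Gfap from 115 to 1945 TPM, and their sum went from 384 to 437 TPM up to 3237 to 5089.6 TPM. Of 8 neuronal markers, 7 fell (median -0.65), their sum being 6410 to 6723 TPM in Sham and 3819 to 4695 TPM in Vehicle mice, with no marker at 0. All 8 microglial markers rose (median 1.58), as did 7 of 7 tested markers of phagocytes and leukocytes (median 4.08), of which 1 of the 8 markers was at 0 in some Vehicle libraries. Of 6 markers of cortical neurons 5 fell (median -0.88), whereas no striatal marker was called. Fibroblast and pericyte markers rose in 5 of 5 genes, and summed to 44.1 to 47.7 TPM in Sham and 79.4 to 472 TPM in Vehicle mice. Vehicle mice J01B and J17B, which had the lowest Aqp4, Gja1, Aldh1l1 and Sox9 of their group, also had the lowest sums of reactive astrocyte genes, 3538 and 3237 TPM against 4489.7 to 5089.6 TPM in the other 3. TPM are shares of a library, so that a fall in some genes raises the share of the others. The part of these changes in the values above was not tested.

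To ask what CSF1R inhibition did to these genes, PLX3397 was compared with Vehicle. Of the 10 genes, 1 was called higher and none lower, whereas 3.23% of all genes were called higher and 6.66% lower. The called gene was Aldoc, which had 921, 958, 960.2, 951 and 951 TPM with PLX3397, all above the Vehicle mice (817 to 887 TPM), a separation upwards seen in 1.98% of all genes. The log2 fold change was small at 0.16 (SE 0.049, adjusted p = 0.0416). The call was lost without a filter, with median-ratio scaling, without a variance trend, and without any one of 9 of the 10 mice (0.14 to 0.17, adjusted p = 0.0522 to 0.113). It held without Vehicle mouse J17B (adjusted p = 0.0285). Aldoa rose beside it, to 1490.4 ± 63.4 TPM (SD, n = 5; log2 fold change 0.19, adjusted p = 0.00089), and 3 of 8 neuronal markers were called higher. All 8 microglial markers fell (median -1.36), and the sum of these markers was 510 to 775 TPM against 1197 to 1525 TPM in Vehicle mice. The 7 tested phagocyte and leukocyte markers also fell (median -0.84), as did 4 of 4 markers of oligodendrocyte progenitors (median -0.29). Of 5 fibroblast and pericyte markers 4 rose (median 1.14). The part of these cells in the change of Aldoc was not tested.

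The other 9 genes did not pass with PLX3397. Aqp4 was 205 ± 22.1 TPM against 214 ± 26.1 TPM in Vehicle mice (log2 difference -0.06, 95% interval -0.27 to 0.15), and Gja1 was 341 ± 28.3 against 365 ± 34.3 TPM (-0.10, interval -0.22 to 0.02). Glul differed by -0.01, with an interval of -0.10 to 0.07. Sox9 was nearest to a call, with 28.6, 31.1, 33.6, 30.3 and 33.3 TPM (log2 difference -0.25, SE 0.082, adjusted p = 0.054). All of these values lay below 4 of the 5 Vehicle mice, and only Vehicle mouse J01B (28.7 TPM) stood among them. With all mice, Sox9 was not called with Anakinra (adjusted p = 0.2025) or with both drugs (adjusted p = 0.106) either. Leaving out J01B, the lowest Vehicle mouse, gave a call with PLX3397 (-0.34, adjusted p = 0.00138). It also gave one with Anakinra (-0.34, adjusted p = 0.0419) and with both (-0.29, adjusted p = 0.00388). Leaving out any other mouse gave no call of Sox9, and these comparisons share the Vehicle mice.

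With Anakinra, none of the 10 genes was called against Vehicle in limma, beside 0.116% of all genes in either direction. At an unadjusted p below 0.05, 7 of the 10 differed, against 12.4% of all genes, and by the exact permutation test 4 did. Of the 7, 6 had a lower and 1 a higher mean. The count of 7 depends on the scaling, as Slc1a3 and Slc6a11 fell short of it with median-ratio scaling. Gja1 had 319, 314, 283, 322 and 312 TPM, all below the lowest Vehicle mouse at 333 TPM (log2 difference -0.23, SE 0.059, adjusted p = 0.0986). Aqp4 had 185, 186, 142, 176 and 191 TPM, just below the lowest Vehicle mouse at 192 TPM (-0.28, SE 0.10, adjusted p = 0.232). Such separation downwards was seen in 1.42% of all genes. Slc1a2 was 655 ± 38.0 TPM against 731 ± 35.1 TPM in Vehicle mice (-0.16, adjusted p = 0.135), with overlap. Aldh1l1 alone had the opposite sign among the 7, with 108, 101, 107, 103 and 102 TPM against 78.9 to 107 TPM in Vehicle mice (0.18, adjusted p = 0.321). The SD of Aldh1l1 was 3.09 TPM with Anakinra, 3.28 with PLX3397, 5.08 in Sham, 9.71 with both drugs and 12.1 in Vehicle mice. With Anakinra the median log2 difference was 0.02 over the 19 reactive astrocyte genes and 0.01 over both the 8 microglial and the 8 neuronal markers, with no call by limma among them. Single reactive astrocyte genes ranged widely, from -1.35 to 0.79. The medians of other lists were 1.16 for 5 fibroblast and pericyte markers, -0.24 for the 4 other connexins, -0.15 for 7 phagocyte and leukocyte markers, -0.13 for 5 endothelial and -0.10 for 6 oligodendrocyte markers, again with no call. Fibroblast and pericyte markers summed to 531 to 1008 TPM with Anakinra, above all Vehicle mice (79.4 to 472 TPM). Their part in the values of the 10 genes was not tested.

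**Figure D4:**
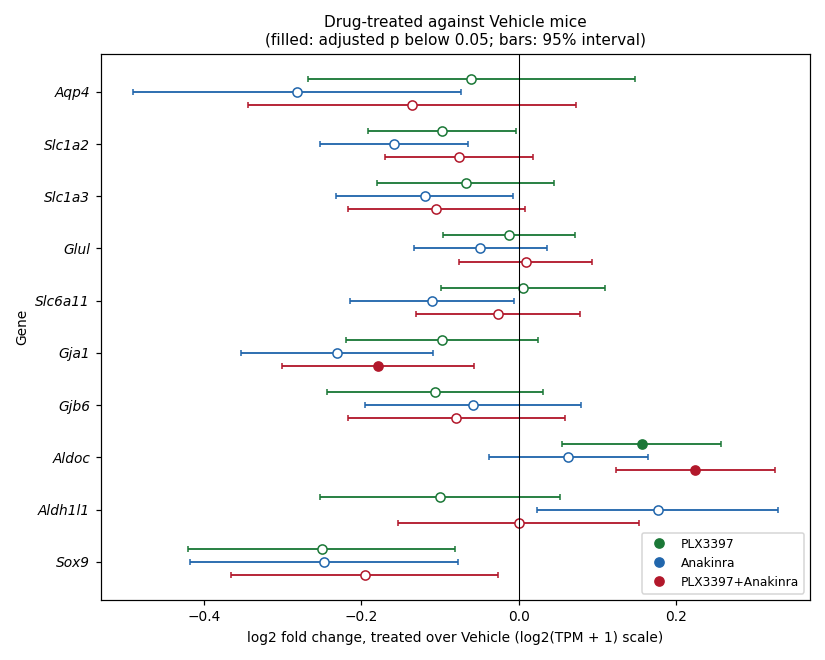
Log2 fold change of each drug group over Vehicle (horizontal axis, log2(TPM + 1) scale) for the 10 genes (vertical axis), with 95% intervals of limma, in green for PLX3397, blue for Anakinra and red for PLX3397+Anakinra; filled points have an adjusted p below 0.05. Filled are only Aldoc with PLX3397 (0.16) and with both drugs (0.22), and Gja1 with both drugs (-0.18).

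With PLX3397+Anakinra, 1 gene was called higher and 1 lower against Vehicle, beside 7.88% and 9.6% of all genes. Aldoc had 936, 965, 1124, 991 and 963 TPM, all above the Vehicle mice (log2 fold change 0.22, SE 0.049, adjusted p = 0.00192), as 4.09% of all genes were. This call held without each of the mice in turn, at 0.18 to 0.25. Aldoa rose too, to 1499.6 ± 24.4 TPM (0.20, adjusted p = 0.000315), and 5 of 8 neuronal markers and 4 of 6 markers of cortical neurons were called higher. Gja1 had 341, 325, 301, 334 and 306 TPM, which overlapped with Vehicle mice (log2 fold change -0.18, SE 0.059, adjusted p = 0.0379). Its call was lost in the exact permutation test (p = 0.0556), without a filter, without a trend, with the compared groups alone, and without any one of 6 mice (J18B, J19B and J20B of Vehicle, and J04, J09 and J17 of the combination). The reactive astrocyte genes were called lower in 4 of 19, and all 8 microglial markers fell (median -1.43). The 7 phagocyte and leukocyte markers fell too (median -1.31), as did 4 of 4 markers of oligodendrocyte progenitors (median -0.35), and 3 of 5 fibroblast and pericyte markers rose (median 1.11). The part of these cells in the changes of Aldoc and Gja1 was not tested.

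Direct comparison of the combination with each drug showed little. Against PLX3397 none of the 10 genes was called in limma, none at an unadjusted p below 0.05 and none by the exact permutation test, beside 0.151% of all genes called and 6.71% at an unadjusted p below 0.05. The 95% intervals of these log2 differences were narrowest for Glul (-0.06 to 0.11) and widest for Aqp4 (-0.28 to 0.13), and a missed threshold does not show that the groups were alike. Against Anakinra, Aldoc was called higher (0.16, SE 0.049, adjusted p = 0.0297) and no gene lower, beside 4.67% and 8.1% of all genes. Its values did not overlap between these groups, as in 3.94% of all genes. The call was lost with median-ratio scaling (0.13, adjusted p = 0.106), without a filter (adjusted p = 0.0567), with the compared groups alone (adjusted p = 0.0584), and without J05 or J22 of Anakinra or J09 or J10 of the combination. The interaction, which asks whether the effect of Anakinra differed with PLX3397 present, was called in none of the 10 genes by limma, as in 0% of all genes. At an unadjusted p below 0.05 it was past in 2 genes, Slc1a2 (0.18, adjusted p = 0.485) and Sox9 (0.30, adjusted p = 0.546), beside 8.08% of all genes.

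Against the same Sham mice, most of the 10 genes were also higher in each drug group. All 10 genes were called higher with PLX3397 (22.7% of all genes), 7 with Anakinra (25.1%) and 9 with both (20.7%). The log2 fold change of Aqp4 was 1.97 with PLX3397, 1.75 with Anakinra and 1.89 with both, beside 2.03 in Vehicle mice. That of Gja1 was 1.02, 0.89 and 0.94, beside 1.12. Aldh1l1 was at 0.66, 0.94 and 0.76, beside 0.76. Aldoc, not called in Vehicle against Sham mice, was called with PLX3397 (0.21, adjusted p = 0.00147) and with both (0.28, adjusted p = 0.000112). With Anakinra, Slc1a2, Slc6a11 and Aldoc were not called (adjusted p = 0.294, 0.762 and 0.0522), and with both drugs only Slc6a11 was not (adjusted p = 0.128). With PLX3397 the calls of Slc1a2 (0.12, adjusted p = 0.0401) and Slc6a11 (0.14, adjusted p = 0.0407) were both lost without a filter, without a trend and with the compared groups alone. They were also lost without any one of 6 and 7 of the 9 mice, respectively: J01, J19 and J20 of PLX3397 and J07, J08 and J15 of Sham for Slc1a2, and J01, J02, J12 and J20 of PLX3397 and the same Sham mice for Slc6a11. That of Slc1a2 with both drugs (0.14, adjusted p = 0.0196) was lost without J17 of the combination or J07 or J15 of Sham (adjusted p = 0.0516 to 0.0556). Aldoc with Anakinra was called with median-ratio scaling (adjusted p = 0.0211), among genes averaging 5 TPM or more (adjusted p = 0.0434), and without J05 of Anakinra or J16 of Sham (adjusted p = 0.0305 and 0.00599). These comparisons share the Sham mice, and a gene called in one and not in another is not thereby shown to differ between them.

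The wider set of 63 genes in the 7 lists of astrocyte and glial functions was read in the same comparisons. In Vehicle against Sham mice 44 of the 63 (69.8%) were called higher and 8 (12.7%) lower (median 0.39), beside 26.6% and 27.7% of all genes. With PLX3397 against Vehicle 2 (3.17%) were higher and 4 (6.35%) lower (median -0.06), near the shares of 3.23% and 6.66% over all genes. Mertk, a receptor for engulfment that microglia carry too, fell by 0.50 and S1pr1 by 0.13 on the log2 scale, and Glud1, which links glutamate to the citrate cycle, by 0.13. With Anakinra only Zbtb20 was called, lower by a log2 difference of -0.44 (adjusted p = 0.0217). With both drugs 3 (4.76%) were higher and 9 (14.3%) lower (median -0.05), beside 7.88% and 9.6% of all genes. Of the metabolic genes Aldh1l2 fell by 0.36, the lactate carrier Slc16a1 by 0.33 and Psat1, an enzyme of serine synthesis, by 0.16. Hes5, which had fallen after injury, rose with PLX3397 (0.50, adjusted p = 0.036) and with both (0.56, adjusted p = 0.0118). Kcnj10, Slc7a10, Gjb2 and Sox2 were not called between any drug group and Vehicle, whereas Nfia was lower with both drugs (-0.24, adjusted p = 0.0184).

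To see how the 10 genes vary among mice treated alike, the deviations of log2(TPM + 1) from the group means were correlated over the 24 mice for 45 pairs, with permutation of mice within groups. After adjustment over the 45 pairs, 3 pairs passed by Pearson's r and 1 by Spearman's rho. Aqp4 and Gja1 varied together most closely (r = 0.822, permutation p = 1e-05, the smallest the resamples can give, adjusted p = 0.00045; rho = 0.772, permutation p = 0.00015, adjusted p = 0.00675). Without the 2 mice farthest from the median of Aqp4, r was 0.859. Glul varied with Gjb6 (r = 0.695, permutation p = 0.0016, adjusted p = 0.024; rho = 0.597, permutation p = 0.00653, adjusted p = 0.0979; r = 0.571 without 2 mice) and with Aldh1l1 (r = 0.675, permutation p = 0.00076, adjusted p = 0.0171; rho = 0.63, permutation p = 0.00292, adjusted p = 0.0657; r = 0.626 without 2 mice). Both pairs missed the threshold by rank. With only the 20 injured mice, only the pair of Aqp4 and Gja1 passed.

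**Figure D5:**
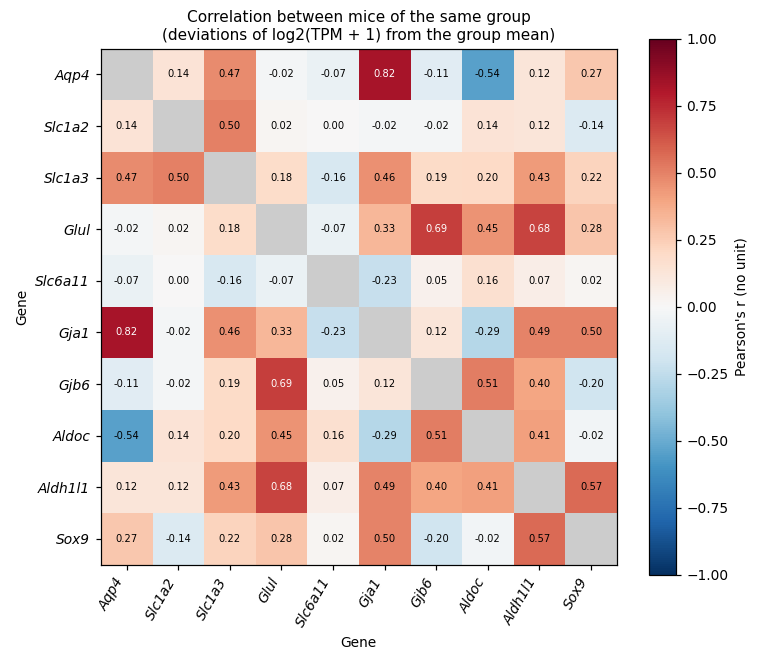
Pearson's r (colour scale from -1 to 1, and printed) between the deviations of log2(TPM + 1) from the group mean over 24 mice, for each pair of the 10 genes on both axes; the diagonal is left grey. The pair of Aqp4 and Gja1 has the highest r at 0.82, and the row of Slc6a11 stays between -0.23 and 0.16.

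The other pairs did not pass. Of the 45 values of r, 32 were above 0, with a median of 0.139. The lowest was that of Aqp4 with Aldoc (r = -0.543, permutation p = 0.0213, adjusted p = 0.149; rho = -0.457, permutation p = 0.0239, adjusted p = 0.215), which shrank to -0.227 without 2 mice. Combination mouse J09 had at once the lowest Aqp4 (144 TPM) and the highest Aldoc (1124 TPM), Glul (2226 TPM) and Gjb6 (81.4 TPM) of its group. The microglial sum of this mouse was the lowest of its group, at 466 TPM.

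Over all 24 libraries, each of the 10 genes was compared with 12513 other genes that averaged 5 TPM or more, as a description in which the gap between Sham and injured mice weighs heavily. The level of Aqp4 was most like those of Slc14a1 (r = 0.985), Gfap (0.98) and Serpina3n (0.979), the last being an acute phase inhibitor of reactive astrocytes. Gja1 was most like Pea15a (r = 0.988), Slc14a1 (0.987) and Prdx6 (0.981). Slc1a3 was most like Elovl5 (0.972), Mmd2 (0.97) and Asrgl1 (0.966), and Aldh1l1 most like Ccnd1 (0.954), Sardh (0.948) and Bcl3 (0.946). Glul was most like Dbndd2 (0.922), Sdc4 (0.921) and the metallothionein Mt2 (0.912). Sox9 was most like Ezr (0.919), Capsl (0.917) and Ccdc190 (0.914). The other 4 genes had no likeness above 0.867. Slc1a2 was nearest to Zbtb20 (0.82), Folh1 (0.816) and Tnr (0.815), Gjb6 to Vstm4 (0.867), Ly6a (0.851) and Htra1 (0.849), Aldoc to Gstm1 (0.831), Mccc2 (0.788) and Csrp1 (0.767), and Slc6a11 to Ncam1 (0.813), Nos1 (0.752) and Cachd1 (0.748).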

How the data were processed

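Bulk RNA from 24 mice was sequenced from polyA libraries in paired-end mode, and the authors processed the reads in CLC Genomics Workbench with the mm10 annotation (GRCm38 in the submitters' processing notes). The authors deposited TPM, scaled by gene length and to 1000000 per library. The methods add that CLC calls this unit CPM, but within each library 93.4% or more of the values above 0 were distinct, which read counts without scaling by length would not give. The authors also deposited p-values and F values (a score) of their own tests, which were not used. Read depth is not given in the sources used here, so precision rests on the spread between mice. The full-precision table was used (22160 to 23249 genes above 0 per library). Groups came from the labels, and 1 library is 1 mouse.

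Here log2(TPM + 1) of the 17267 genes averaging 0.5 TPM or more was fitted in limma 3.58.1 (R 4.3.3) with a variance trend, all 24 libraries entering with a mean for each group. Benjamini-Hochberg adjustment covered all genes tested. Fold changes on this scale understate low genes. Permutations used NumPy 2.4.6. The scripts were tested on simulated data. The 10 genes, the gene lists and the rule for naming genes were chosen with earlier results of these data known. Named were the 10 genes, the 3 genes most like each, at most 3 list genes per direction and comparison by adjusted p, and Gfap, Kcnj10, Slc7a10, Gjb2, Aldoa, Nfia and Sox2, and some list genes are not reported here. Alternatives were another pseudocount (0.1), other filters, median-ratio scaling, no trend, fewer groups, each mouse left out, the rounded tables, exact permutation tests, the study's DEG criteria and a block for animal numbers. Only Vehicle numbers carry a B, and if it marks a batch, batch and treatment cannot be told apart.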

Additional observations from a re-analysis of the deposited data

Results flagged for a closer look

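In 4 of 50 combinations of gene and group, 1 mouse stood apart from the other 4 by Dixon's criterion, which flags about 1 in 20 groups by chance. Aqp4 of PLX3397+Anakinra mouse J09 was 144.08 TPM, against 203.9 to 214.54 TPM in the others. Glul of the same mouse was 2225.6 TPM, against 1951.5 to 2009.6 TPM. Gja1 of Anakinra mouse J14 was 282.8 TPM, against 311.5 to 322.16 TPM. Aldoc of PLX3397 mouse J01 was 920.74 TPM, against 950.73 to 960.21 TPM.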

How the results depend on the processing

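Of 900 recomputed values of single genes under other settings, 870 kept their direction and side of the threshold, 19 lost and 8 gained a call, and 3 changed sign. The exact permutation p entered these counts unadjusted, unlike that of limma. Aqp4, Gja1, Slc1a2 and Slc6a11 with Anakinra against Vehicle gained a call only by it, as did Aldh1l1 with both drugs against Anakinra. Of 1060 values without one mouse, 979 kept both, 41 lost and 5 gained a call, and 35 changed sign. The cause was not tested in any of these.

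With PLX3397 against Vehicle (1 gene called), 2 genes were called among genes averaging 5 TPM or more (Sox9 joined), and 0 without a filter, with median-ratio scaling, without a trend, under the study's DEG criteria and with the replicate block. With both drugs against Vehicle (2 called) it was 1 without a filter, without a trend, with only the compared groups and by exact permutation, and 0 under the DEG criteria. For both drugs against Anakinra (1 called) it was 0 without a filter, with median-ratio scaling, with only the compared groups and under the DEG criteria, and 2 by exact permutation. With Anakinra against Vehicle (0 called in limma, 7 at an unadjusted p below 0.05), exact permutation gave 4. Median-ratio scaling moved the log2 differences of Slc1a3 and Slc6a11, both among the 7, from -0.12 and -0.11 to -0.10 and -0.09. Their SE were then 0.053 and 0.048, so that each lay less than 2 SE from 0 and short of an unadjusted p below 0.05. The count of 7 thus depends on the scaling, and it was not redone in full. The DEG criteria gave 2 genes for Vehicle, 2 for PLX3397, 1 for Anakinra and 1 for both drugs against Sham. Correlated pairs numbered 1 among only the 20 injured mice, against 3.

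Without one mouse at a time, genes called ranged from 0 to 1 with PLX3397 against Vehicle, 0 to 1 with Anakinra (1 without J01B, namely Sox9), 1 to 3 with both drugs and 0 to 1 for both drugs against Anakinra. Correlated pairs ranged from 1 to 5, with 5 without Anakinra mouse J14 and 1 without J17 of the combination or J16 of Sham.

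Log2 differences that changed sign were near 0. Median-ratio scaling gave -0.001128 for Glul with both drugs against Vehicle, -0.013435 for Slc1a3 with both against Anakinra, and -0.018425 for Aldoc in the interaction. Without one mouse, with PLX3397 against Vehicle, Aqp4 ranged from -0.10593 to 0.0024644, Glul from -0.0317 to 0.0045742 and Slc6a11 from -0.013908 to 0.036712. With both drugs against Vehicle, Glul ranged from -0.02507 to 0.025788, Aldh1l1 from -0.054824 to 0.053157 and Slc6a11 from -0.06 to 0.004927. With both against PLX3397, Aqp4 ranged from -0.11993 to 0.030532, Slc1a2 from -0.00053091 to 0.046184, Slc1a3 from -0.05879 to 0.0043273, Glul from -0.012523 to 0.040368 and Gjb6 from -0.029295 to 0.059296. With both against Anakinra, Slc1a3 ranged from -0.021186 to 0.037794 and Gjb6 from -0.077329 to 0.020661. Slc6a11 with Anakinra against Sham ranged from -0.015825 to 0.047809, and Aldoc in the interaction from -0.039259 to 0.026643.

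Median-ratio scaling moved the median of all genes by at most 0.03 on the log2 scale, but the share of called genes that were higher went from 36.6% to 23.05% for both drugs against Anakinra and from 60% to 45.5% with Anakinra against Vehicle. Vehicle and PLX3397 mice shared 3 animal numbers (01, 19 and 20), whose deviations correlated at 0.17, -0.13 and -0.07, so that they were not taken as pairs. Vehicle mouse J17B and PLX3397+Anakinra mouse J17 also shared a number, which was neither checked nor blocked. The fit with the replicate block, which held only Vehicle and PLX3397 mice, called 692 genes and 0 of the 10 (Aldoc, adjusted p = 0.0816). The fit of all 24 libraries without a block called 1707, so that the mice used differed as well as the block. TPM without depth gives no counting error, so that precision rested on the spread of 4 or 5 mice and small differences may have been missed.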
